A study of Mus musculus with 16 samples.

Results

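The exosome release machinery is described here in mouse gastrocnemius, a muscle of the calf, through 10 of the 21923 gene identifiers measured. The genes were chosen by symbol from a list of known components: the GTPases Rab27a and Rab27b, their effectors Sytl2 and Sytl4, Tsg101 and Pdcd6ip of the ESCRT pathway, the adaptor Sdcbp, the tetraspanins Cd63 and Cd81, and the sphingomyelinase Smpd3. The choice was made with earlier results of these data known. Each of the 10 stood under 1 identifier, and all 10 passed the filter on low counts in every comparison.

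Exosomes are small vesicles that form when the membrane of a late endosome buds inward, which makes a multivesicular body, and they are freed when that body fuses with the plasma membrane. ESCRT complexes drive the inward budding, as does ceramide that neutral sphingomyelinase releases from sphingomyelin, and tetraspanins are abundant in the membrane of the vesicles. Rab27a and Rab27b are small GTPases that bring multivesicular bodies and other secretory organelles to the plasma membrane through effectors such as the synaptotagmin-like proteins. In muscle, exosomes are one of the routes by which fibres exchange proteins and RNA with other tissues.

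Poly(A) RNA of 16 mice was sequenced as 1 library per mouse, with 4 mice in each of 4 groups. The NOR mice had no tumor cells and were given PBS, daily from day 9. The CAC mice, the cachexia group, were inoculated with LLC or CT26 tumor cells and received PBS from day 9. The AM mice carried the same tumors and received amiloride, a diuretic, at 2 mg/kg daily from day 9. The KD mice carried tumors grown from cells in which Rab27a and Rab27b had been knocked down by shRNAs, and received PBS daily from day 9. Muscles were taken on day 30 from mice obtained as adults of 6 to 8 weeks. In each group, 2 mice were labelled C57BL/6 and, where tumor-bearing, carried LLC (Lewis lung carcinoma) cells, and 2 were labelled BALB/c and carried CT26 (colon carcinoma) cells, so that strain and tumor line changed together. The knock-down was made in the tumor cells, while the muscle belongs to the host, so that the levels of Rab27a and Rab27b below do not check it.

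The count table held 35913190 to 61032708 reads a library, and markers of muscle fibres summed to between 50866 and 164374 CPM (counts scaled to library size) in the 16 libraries. By group, the sums were 116334 to 164374 CPM in NOR, 50866 to 119907 in CAC, 103871 to 134985 in AM, and 91642 to 147860 in KD. Several libraries stood apart in ways that the groups do not explain. In CAC replicate 4, AM replicates 1 and 3, and KD replicate 1, Rps2 was at 28.7 to 99.6 CPM against 769 to 1199 CPM in the other 12 libraries, while Gm10260, a predicted gene, was at 161 to 313 CPM against 0.899 to 1.85 CPM. These 4 libraries hold both labelled strains, and none is of the NOR group. KD replicate 3 had 0 counts of Ddx3y, a Y-linked gene at 46.8 to 89.7 CPM in the other 15 libraries. This mouse is labelled BALB/c, and for that strain the study's main methods name males, while the labels' protocol names both males and females. Labelled strain was tested over the 16 libraries with the group as a covariate, and edgeR called 0 of 15220 genes (248 had an unadjusted p under 0.05) while DESeq2 called 18. Labels were used as given. Since the pattern of the 4 libraries crosses the strain labels and edgeR called no gene between the labelled strains, the labels may not match the strain of every library, which was not tested, and each value by strain below is a value by label. Calls that were lost without the 4 libraries are given beside their results.

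The coordinates are those of GENCODE M21 on GRCm38. Rab27a lies at chr9:73044854-73097629, Sytl2 at chr7:90302252-90410719, and Cd63 at chr10:128900989-128912822, all on the plus strand. Sequence before the transcription start was taken from RefSeq (GRCm38.p6), in which 6 of the 10 genes matched a promoter entry. The 250 bases before each annotated start of Rab27a, which has 2 such starts, and of Cd63, which has 1, are shown because these genes were higher in the CAC gastrocnemius. The Cd63 start of RefSeq lies within the span that GENCODE gives the gene. Capitals mark letters that match CACGTG, a palindrome bound by E-box factors, or TTNNGNAA, a pattern of C/EBP factors, on either strand.
Rab27a, chr9:73044560-73044809, plus strand: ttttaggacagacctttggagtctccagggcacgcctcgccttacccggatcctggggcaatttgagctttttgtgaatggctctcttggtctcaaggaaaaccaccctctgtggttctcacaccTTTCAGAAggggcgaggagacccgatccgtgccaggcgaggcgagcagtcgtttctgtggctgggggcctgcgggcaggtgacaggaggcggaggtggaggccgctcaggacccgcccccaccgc
Rab27a, chr9:73063898-73064147, plus strand: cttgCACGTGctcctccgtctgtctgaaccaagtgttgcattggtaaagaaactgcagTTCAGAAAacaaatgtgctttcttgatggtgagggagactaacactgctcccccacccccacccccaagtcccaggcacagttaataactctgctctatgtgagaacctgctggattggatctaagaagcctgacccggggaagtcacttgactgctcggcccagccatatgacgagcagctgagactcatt
Cd63, chr10:128909095-128909344, plus strand: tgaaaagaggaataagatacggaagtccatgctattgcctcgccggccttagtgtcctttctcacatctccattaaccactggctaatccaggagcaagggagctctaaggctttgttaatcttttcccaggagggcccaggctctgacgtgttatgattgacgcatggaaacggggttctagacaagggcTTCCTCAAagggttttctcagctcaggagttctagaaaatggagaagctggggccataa

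Of all 32851 windows of this length, 36.8% hold TTNNGNAA, so that its presence in each of the 3 windows is common. CACGTG stands in 6.02% of windows and occurs once in these, in the second Rab27a window. Neither TGTTTAC, a FOXO pattern found in 3.17% of windows, nor TTCNNNGAA, a STAT pattern in 7.02%, nor TATAAA, the TATA box in 12.4%, was among their letters. The first Rab27a window was 62.0% G and C with 14 CG pairs, the second 51.6% with 5, and the Cd63 window 48.8% with 6, against medians of 52.4% and 6 over all windows.

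Levels of different genes were compared per length, as FPKM (fragments scaled to transcript length and library size) deposited by the authors. In the NOR gastrocnemius, Cd81 was at 205 ± 10.9 FPKM (SD, n = 4) and Cd63 at 104 ± 11.3. The ESCRT-I subunit Tsg101 was at 51.8 ± 3.73 FPKM and Sdcbp, which encodes the adaptor syntenin, at 43.0 ± 8.20. These 2 overlapped between mice. Pdcd6ip, which encodes ALIX, was at 15.4 ± 0.980 FPKM, and every other member was lower. Rab27a (2.85 ± 1.62), Sytl2 (2.37 ± 0.555), and Smpd3 (1.49 ± 0.475) each overlapped with the next gene in this order. Sytl4 was at 0.675 ± 0.121 FPKM and Rab27b at 0.160 ± 0.0294, the lowest of the 10. The tetraspanins, Tsg101, Sdcbp, and Pdcd6ip were thus higher per length than the Rab27 genes, their effectors, and Smpd3. The order of the group means was the same in CAC, AM, and KD, although in CAC the mice overlapped between Cd81 and Cd63.

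**Figure D1:**
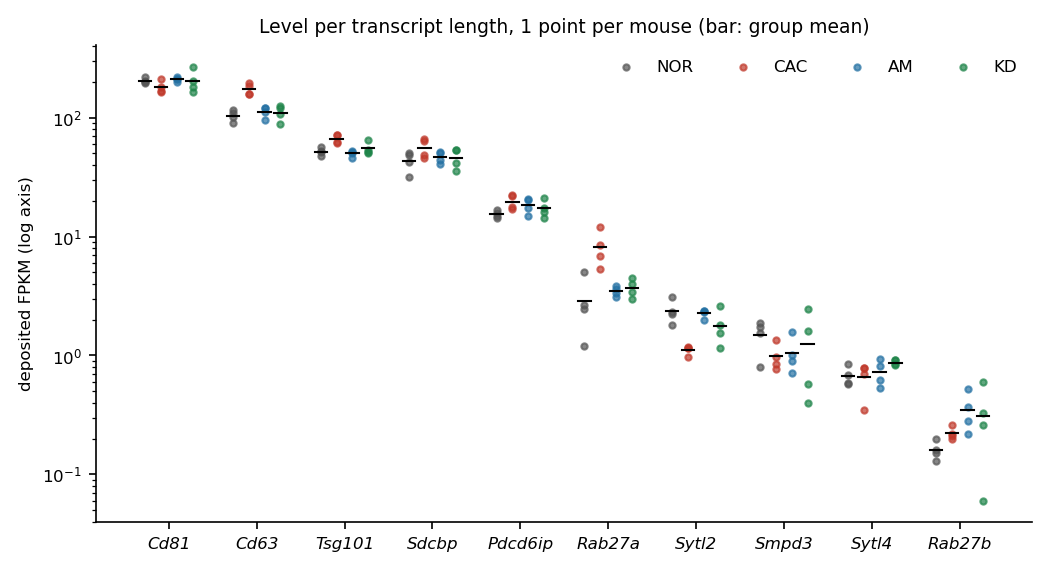
Deposited FPKM (vertical axis, logarithmic) of the 10 genes in each mouse, with genes ordered by their NOR mean, colors for the 4 groups, and bars at the group means. Rab27b had the lowest group mean throughout, and the Rab27a mean was 36.7 times that of Rab27b in CAC against 17.8 times in NOR. Ratios of single mice overlapped between CAC and NOR.

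Rab27a was the main Rab27 transcript in every group. The ratio of the Rab27a mean to the Rab27b mean, per length, was 36.7 in CAC, against 17.8 in NOR, 10.0 in AM, and 11.9 in KD. Ratios of single mice overlapped between CAC and NOR and between CAC and KD, but not between CAC and AM. For Rab27a and Rab27b, NOR replicate 4 had 5.08 and 0.2 FPKM, CAC replicate 4 had 5.31 and 0.22, and KD replicate 3 had 4.46 and 0.06. Rab27b rested on 14 to 113 counts a library. All comparisons between groups below use counts with edgeR's quasi-likelihood F test, and a gene was called when its FDR (Benjamini-Hochberg, over all genes tested) was 0.05 or less and its fold change was 1.5 or more in either direction. Levels within a gene are CPM normalized by TMM over the 16 libraries. In bulk muscle, fewer cells of a type and less RNA per cell cannot be told apart.

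CAC vs. NOR asks how the cachectic muscle differs from normal muscle. In the CAC gastrocnemius, 3 of the 10 genes were called: Rab27a and Cd63 were upregulated, and Sytl2, an effector of Rab27a, was downregulated. Of all 14666 genes tested, 9.45% were called in either direction. The median log2 fold change was 0.23 over the 10 genes and 0.01 over all genes. The 4 CAC mice did not overlap with the 4 NOR mice for 3 members (Sytl2, Pdcd6ip, and Cd63), nor for 23.3% of all genes.

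Rab27a was at 4.17, 8.02, 7.75, and 15.5 CPM in NOR replicates 1 to 4, and at 27.2, 21.4, 30.0, and 15.4 CPM in CAC replicates 1 to 4. The groups touched at their ends, because NOR replicate 4 (15.52 CPM) lay just above CAC replicate 4 (15.43 CPM), which is one of the 4 libraries that stand apart. The log2 fold change was 1.42 (SE 0.37, FDR 0.0399 by edgeR). The call rested on most of the libraries: it was lost without any 1 of NOR replicates 1 to 3 or CAC replicates 1 to 3, with edgeR FDRs of 0.0646, 0.106, 0.109, 0.0890, 0.0731, and 0.0869 and log2 fold changes of 1.20 to 1.45. Without NOR replicate 4 the log2 fold change was 1.82 (edgeR FDR 0.0162), and without CAC replicate 4 it was 1.58 (edgeR FDR 0.0388). Within the labelled strains, with 2 mice against 2, it was 1.99 in C57BL/6 and 1.01 in BALB/c, and neither was called.

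Rab27b, the close relative of Rab27a, was at 0.751, 0.535, 0.625, and 0.825 CPM in the NOR mice, from 29 to 48 counts. In the CAC mice it was at 0.848, 1.07, 0.703, and 0.853 CPM. The groups overlapped, with a log2 fold change of 0.34 (SE 0.29, FDR 0.484 by edgeR).

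Sytl2 encodes a synaptotagmin-like protein that docks Rab27a-bearing organelles at the plasma membrane. It was at 8.39, 10.3, 7.79, and 5.95 CPM in the NOR mice and at 4.04, 3.94, 2.63, and 3.65 CPM in the CAC mice. Every CAC mouse was below every NOR mouse. The log2 fold change was -1.19 (SE 0.21, FDR 0.0111 by edgeR), and the call held without any single library, at -1.32 to -1.06. Sytl4, the second synaptotagmin-like member, overlapped between the groups (log2 fold change -0.16, SE 0.29, FDR 0.780 by edgeR).

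Cd63, a tetraspanin of late endosomes and of exosomes, was at 99.1, 97.4, 108, and 112 CPM in the NOR mice and at 161, 156, 155, and 170.3 CPM in the CAC mice. The groups did not overlap, and the spread within each was narrow, with an SD of 7.14 CPM in NOR and 6.91 CPM in CAC. The log2 fold change was 0.62 (SE 0.08, FDR 0.00387 by edgeR), just above the log2 limit of 0.58. With upper-quartile scaling it was 0.57, which misses the fold limit (FDR 0.00426 by edgeR). The other tetraspanin, Cd81, differed less and in the opposite direction, from 179 ± 13.3 CPM in NOR to 146 ± 19.4 CPM in CAC (SD, n = 4), and was not called (log2 fold change -0.30, FDR 0.128 by edgeR).

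The remaining members of the budding step were not called. Pdcd6ip was at 68.9 to 75.7 CPM in NOR and 81.5 to 94.7 CPM in CAC, without overlap (log2 fold change 0.22, SE 0.08, FDR 0.117 by edgeR). Tsg101 was at 46.5 ± 4.19 CPM in NOR and 55.0 ± 3.64 CPM in CAC (log2 fold change 0.24, FDR 0.149 by edgeR). Sdcbp was at 64.8 ± 9.56 and 77.5 ± 9.62 CPM (log2 fold change 0.26, FDR 0.211 by edgeR). Smpd3, the neutral sphingomyelinase, had the larger difference of this group, from 5.88 ± 1.65 to 3.64 ± 0.989 CPM, but its mice overlapped and it was not called (log2 fold change -0.69, SE 0.26, FDR 0.122 by edgeR).

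**Figure D2:**
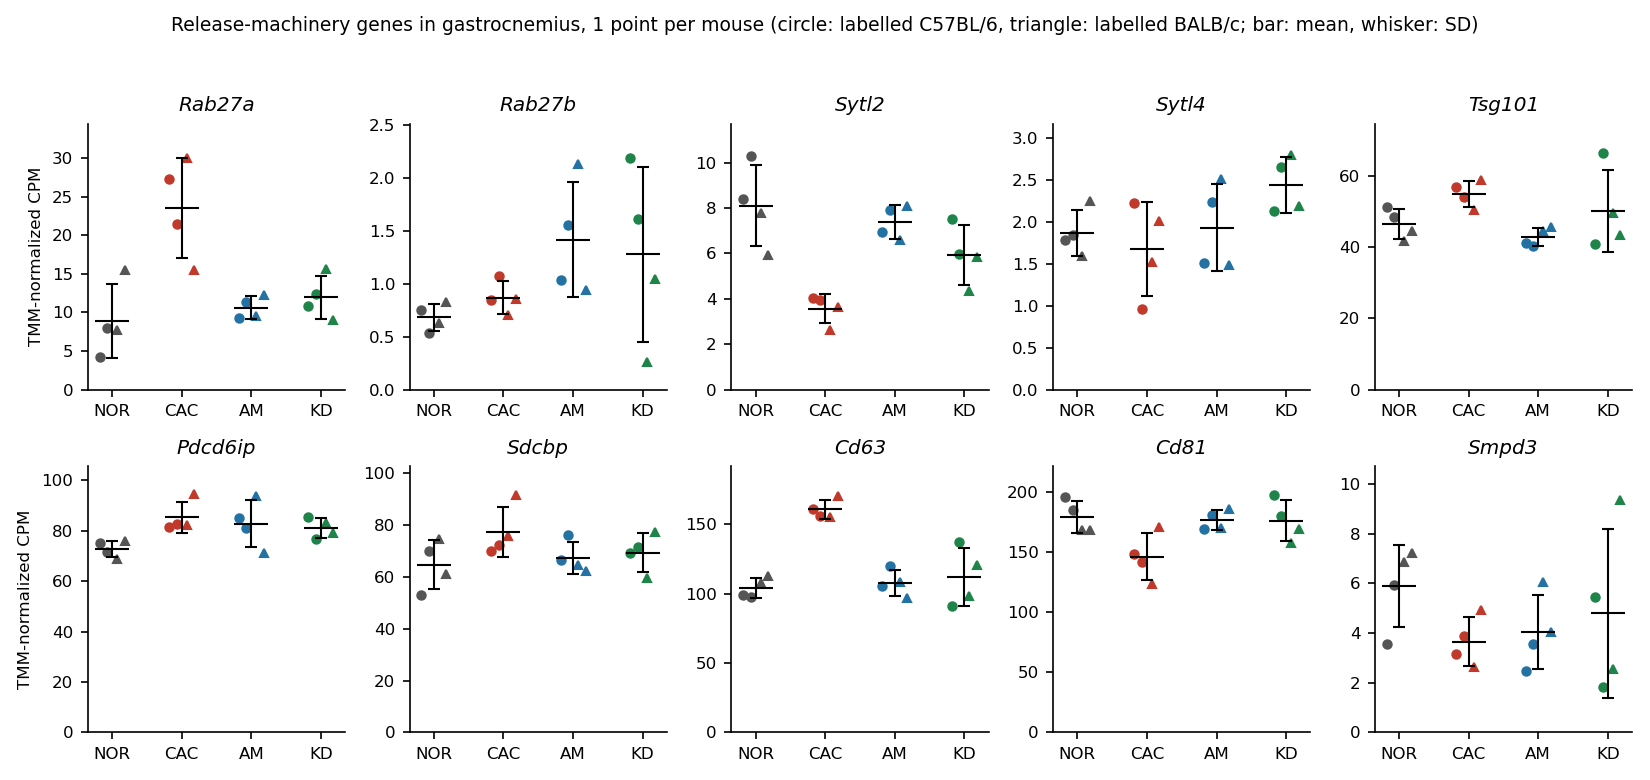
CPM (vertical axes, from 0) of each gene in each mouse by group, with circles for mice labelled C57BL/6, triangles for mice labelled BALB/c, horizontal bars at the group mean, and whiskers of 1 SD (n = 4). The CAC mice lie above all other mice for Cd63 and below all other mice for Sytl2, and for Rab27a 3 of the 4 CAC mice lie above all other mice.

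AM vs. CAC asks how amiloride treatment of tumor-bearing mice changes the muscle. Rab27a was downregulated and Sytl2 upregulated, so that 2 of the 10 genes were called, against 3.66% of 14674 genes. With the FDR limit alone, 4 members passed, the others being Cd63 and Tsg101, against 4.98% of all genes. The median log2 fold change of the 10 genes was 0.05, and that of all genes 0.01. Rab27a, Sytl2, Tsg101, and Cd63 did not overlap between the groups, and 15.3% of all genes did not.

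Rab27a was at 9.23, 11.4, 9.59, and 12.3 CPM in AM replicates 1 to 4, each below the lowest CAC mouse. The log2 fold change was -1.15 (SE 0.22, FDR 0.0260 by edgeR). The call was lost without any 1 of CAC replicates 1 to 3 or AM replicates 1 to 4, with edgeR FDRs of 0.0765, 0.0581, 0.0503, 0.0681, 0.0680, 0.0768, and 0.0606 and log2 fold changes of -1.23 to -0.99. It was also lost without CAC replicate 4 and AM replicates 1 and 3 together, the libraries that stand apart (-1.17, FDR 0.115 by edgeR), which leaves 3 mice against 2. With labelled strain as a covariate it was -1.15 (FDR 0.0512 by edgeR), and with all 16 libraries in 1 fit -1.15 (FDR 0.0678 by edgeR), so that the call was lost in both. The sign was the same in each of these fits.

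Sytl2 was at 6.93, 7.93, 6.60, and 8.11 CPM in the AM mice, each above the highest CAC mouse. The log2 fold change was 1.06 (SE 0.18, FDR 0.0163 by edgeR). The call was lost without AM replicate 2 (1.03, FDR 0.0529 by edgeR), without AM replicate 4 (1.01, FDR 0.0551 by edgeR), and without the libraries that stand apart (1.17, FDR 0.139 by edgeR).

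Cd63 was at 105, 120, 108, and 96.9 CPM in the AM mice, all below the CAC mice. Its log2 fold change of -0.58 (SE 0.09, FDR 0.0123 by edgeR) was short of the fold limit, at a fold change of 0.670. With scaling by total counts it was -0.64, which is past the limit (FDR 0.0270 by edgeR). It was also past the limit without CAC replicate 1 (-0.59, edgeR FDR 0.0432), CAC replicate 2 (-0.59, edgeR FDR 0.0340), or AM replicate 2 (-0.63, edgeR FDR 0.0320). Tsg101 was at 41.1, 40.3, 44.4, and 45.8 CPM in the AM mice and at 56.8, 54.0, 50.4, and 58.7 CPM in the CAC mice. The groups did not overlap, and the log2 fold change of -0.36 (SE 0.08, FDR 0.0414 by edgeR) was short of the fold limit. The FDR limit was missed without any 1 of the 8 libraries, at edgeR FDRs of 0.0671 to 0.116. Without the libraries that stand apart, neither gene was within the FDR limit, with log2 fold changes of -0.56 for Cd63 (FDR 0.161 by edgeR) and -0.34 for Tsg101 (FDR 0.248 by edgeR).

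Rab27b was at 1.04, 1.55, 2.13, and 0.944 CPM in the AM mice, and its 4 values spread over more than those of CAC. The groups overlapped, with a log2 fold change of 0.70 (SE 0.33, FDR 0.272 by edgeR). The other 5 members overlapped between the groups as well. Their log2 fold changes ran from -0.20 for Sdcbp to 0.28 for Cd81, with edgeR FDRs of 0.167 to 0.855.

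KD vs. CAC asks how the muscle differs when the tumor cells carry the Rab27 knock-down. Of the 10 genes, 0 were called by edgeR, and of all 14593 genes 0.00685% were called, which is 1 gene. An unadjusted p under 0.05 was reached by 3 members (Rab27a, Sytl2, and Cd63) and by 11.1% of all genes. DESeq2 called 1 member, Rab27a, and 2.16% of the genes to which it gave an adjusted p. Sytl2 and Cd63 did not overlap between the groups, and neither did 7.29% of all genes.

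In host muscle, Rab27a was at 10.8, 12.4, 15.6, and 9.03 CPM in KD replicates 1 to 4. Only KD replicate 3, the library without Y-linked counts, lay within the CAC range. The log2 fold change was -0.98 (SE 0.24, FDR 0.267 by edgeR), and by DESeq2 it was -0.97 (adjusted p 0.0327). Without KD replicate 3 it was -1.13 (FDR 0.398 by edgeR). Rab27b was at 2.19, 1.61, 0.261, and 1.05 CPM in the KD mice, from 113, 65, 14, and 57 counts. Both the highest and the lowest Rab27b values of the 16 mice were thus in this group, in KD replicates 1 and 3, and the difference from CAC was within that spread (log2 fold change 0.56, SE 0.58, FDR 0.797 by edgeR). For Rab27b it was 0.90 without KD replicate 3 (FDR 0.525 by edgeR), 0.16 without KD replicate 1 (FDR 0.933 by edgeR), and 0.15 without CAC replicate 4 and KD replicate 1, the libraries that stand apart (FDR 0.949 by edgeR).

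Sytl2 was at 7.54, 5.98, 4.34, and 5.83 CPM in the KD mice, all above the CAC mice (log2 fold change 0.73, SE 0.24, FDR 0.339 by edgeR). Cd63 was at 91.2, 137, 98.2, and 120.3 CPM, all below the CAC mice (log2 fold change -0.53, SE 0.15, FDR 0.293 by edgeR). The KD mice spread from 91.2 to 137 CPM, while the CAC mice lay between 155 and 170.3 CPM. The other 6 members, among them Sytl4 and Smpd3, had log2 fold changes from -0.16 to 0.54, with edgeR FDRs of at least 0.541. AM vs. CAC and KD vs. CAC share the 4 CAC mice, so that the values of these mice enter both.

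**Figure D3:**
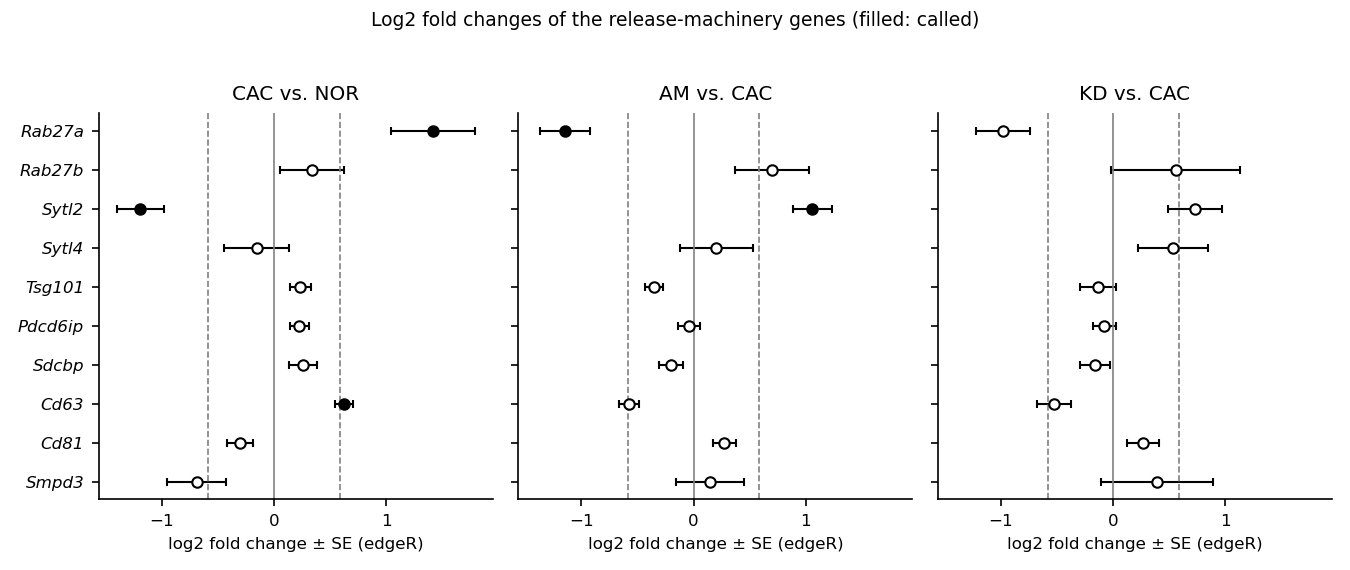
Log2 fold changes by edgeR (horizontal axes, whiskers of 1 SE, n = 4 mice a group) of the 10 genes in 3 comparisons, with filled points for called genes and dashed lines at the fold limit, 0.58 on the log2 scale. Rab27a, Sytl2, and Cd63 are filled in CAC vs. NOR, Rab27a and Sytl2 in AM vs. CAC, and no gene in KD vs. CAC.

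AM vs. NOR and KD vs. NOR ask how far the AM and KD muscles stood from normal muscle. In AM vs. NOR, edgeR called 0 of the 10 genes and 0% of 14738 genes, 1 member (Rab27b) and 9.19% of genes had an unadjusted p under 0.05, and DESeq2 called 0 members and 0.484% of genes. In KD vs. NOR, edgeR called 0 members and 0% of 14748 genes, 0 members and 3.54% of genes had an unadjusted p under 0.05, and DESeq2 called 0 members and 0.216% of genes. The log2 fold changes of Rab27a were 0.27 (SE 0.34) in AM vs. NOR and 0.43 (SE 0.37) in KD vs. NOR. Those of Sytl2 were -0.12 (SE 0.18) and -0.45 (SE 0.23), and those of Cd63 were 0.05 (SE 0.09) and 0.10 (SE 0.15). A p that misses the limit does not show that the groups were alike.

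Rab27b was the 1 member whose AM mice all lay above the NOR mice, with a log2 fold change of 1.05 (SE 0.34, FDR 0.518 by edgeR). Of all genes, 5.11% did not overlap in AM vs. NOR. In KD vs. NOR, Pdcd6ip was the 1 member without overlap, at 76.6 to 85.2 CPM against 68.9 to 75.7 CPM in NOR (log2 fold change 0.15, SE 0.09, FDR 0.999 by edgeR), and 2.26% of all genes did not overlap. The log2 fold changes of all 10 members ran from -0.54 to 1.05 in AM vs. NOR and from -0.45 to 0.91 in KD vs. NOR.

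Labelled strain made no called difference in any member. Over the 16 libraries, edgeR called 0 members and 0% of genes, 1 member (Sytl2, log2 fold change -0.30 for BALB/c against C57BL/6, SE 0.12) and 1.63% of genes had an unadjusted p under 0.05, and DESeq2 called 0 members and 0.105% of genes. The interaction of labelled strain with the condition, which tests whether the change differs between mice of the 2 labels, was called for 0 members and 0% of genes in each of the 3 comparisons with CAC. An unadjusted p under 0.05 was reached by 0 members in CAC vs. NOR (4.89% of genes), 1 member (Sdcbp) in AM vs. CAC (12.4%), and 0 members in KD vs. CAC (5.65%). DESeq2 called the interaction for 0 members in all 3, and for 0.769%, 2.9%, and 0.623% of genes. With 2 mice of each label in a group, the interaction of Rab27a in CAC vs. NOR was -0.95 with an SE of 0.69 on the log2 scale.

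The other genes of the release pathway were taken from 9 lists with 84 symbols, 83 of which stood in the table, under 84 identifiers because Hgs has 2. Of the 83 identifiers tested, CAC vs. NOR had 5 upregulated and 1 downregulated, AM vs. CAC had 3 downregulated, and KD vs. CAC had 0 called, where 8 had an unadjusted p under 0.05 by edgeR and DESeq2 called 1. Over all genes, the shares called were 9.45% in CAC vs. NOR and 3.66% in AM vs. CAC, and 11.1% had an unadjusted p under 0.05 in KD vs. CAC. Whether these shares differ from those of the pathway genes was not tested. The median log2 fold changes over the lists were 0.07, -0.08, and -0.06 in the 3 comparisons, and over all genes 0.01, 0.01, and 0.000182.

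Among the Rab27 effectors and regulators, 2 of 10 were called in both CAC vs. NOR and AM vs. CAC. Myrip, which links Rab27a to myosin motors, rose from 8.60 ± 3.39 CPM in NOR to 22.4 ± 5.40 CPM in CAC (SD, n = 4), with a log2 fold change of 1.38 (SE 0.28, FDR 0.0159 by edgeR), and was at 9.88 ± 1.87 CPM in AM (-1.18, SE 0.21, FDR 0.0190 by edgeR). Rph3al, which encodes the Rab effector Noc2, was at 10.8 ± 1.35, 17.3 ± 1.46, and 10.2 ± 1.07 CPM in NOR, CAC, and AM, with log2 fold changes of 0.67 (FDR 0.0154 by edgeR) and -0.76 (FDR 0.0129 by edgeR). In each of these comparisons, the mice of the groups did not overlap for either gene. Neither did they for 23.3% of all genes in CAC vs. NOR and 15.3% in AM vs. CAC. The calls were lost without NOR replicate 2 for Myrip (1.29, edgeR FDR 0.0537) and Rph3al (0.63, edgeR FDR 0.0526) in CAC vs. NOR, and that of Rph3al also with all 16 libraries in 1 fit (0.67, edgeR FDR 0.128). The call of Myrip in AM vs. CAC was lost without any 1 of CAC replicate 1, AM replicate 1, AM replicate 2, or AM replicate 4, with edgeR FDRs of 0.0600, 0.0575, 0.0594, and 0.0584. With all 16 libraries in 1 fit, both genes lost their call in AM vs. CAC. Myrip was then at -1.18 (edgeR FDR 0.0523) and Rph3al at -0.76 (edgeR FDR 0.135).

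Sgms1, which makes sphingomyelin from ceramide, was the 1 of 10 sphingomyelin and ceramide enzymes called. It was at 52.1 ± 9.50 CPM in NOR, 90.1 ± 14.3 CPM in CAC, and 56.4 ± 5.48 CPM in AM, with log2 fold changes of 0.79 (SE 0.15, FDR 0.0123 by edgeR) and -0.67 (SE 0.12, FDR 0.0224 by edgeR). The second call was lost without any 1 of CAC replicate 1, AM replicate 1, AM replicate 2, or AM replicate 3, with edgeR FDRs of 0.0648, 0.0627, 0.0665, and 0.0671, and with the lymphocyte marker level as a covariate (-0.56, edgeR FDR 0.0562). It was also lost with all 16 libraries in 1 fit (-0.68, edgeR FDR 0.0717). Without CAC replicate 4 and AM replicates 1 and 3, none of the 3 genes called in AM vs. CAC kept its call, with log2 fold changes of -1.47 for Myrip, -0.86 for Rph3al, and -0.61 for Sgms1 and edgeR FDRs of 0.103, 0.132, and 0.227. Sdc2, a syndecan whose tail binds syntenin, was at 35.4 ± 3.42 CPM in NOR and 21.3 ± 5.33 CPM in CAC, with a log2 fold change of -0.74 (SE 0.18, FDR 0.0315 by edgeR). That call held only without CAC replicate 4 among the 8 fits that leave out 1 library. It was lost without any 1 of NOR replicates 1 to 4 or CAC replicates 1 to 3, at -0.80 to -0.57, and with all 16 libraries in 1 fit (-0.73, edgeR FDR 0.0523).

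Hgs, an ESCRT-0 subunit, stands under 2 identifiers that share 93.7% and 98.7% of their 31-base words, so that the split of reads between them is uncertain. The first was at 20.1 ± 4.35 CPM in NOR and 51.0 ± 19.4 CPM in CAC (log2 fold change 1.35, SE 0.29, FDR 0.0205 by edgeR), and the second at 17.0 ± 3.85 and 55.5 ± 19.8 CPM (1.70, SE 0.29, FDR 0.00943 by edgeR). The call of the first was lost when NOR replicate 1, NOR replicate 2, or else the first CAC replicate was left out, with edgeR FDRs of 0.0541, 0.0658, and 0.0510. Neither was called in AM vs. CAC (-1.18 and -1.16, edgeR FDRs of 0.152 and 0.0858) or in KD vs. CAC (-1.70 and -0.68, edgeR FDRs of 0.231 and 0.431). No gene was called in any of the 3 comparisons with CAC among the 17 of ESCRT-II, ESCRT-III, and VPS4, the 8 other vesicle Rab GTPases, the 8 other tetraspanins, the 6 fusion SNAREs, or the 6 cargo proteins.

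**Figure D4:**
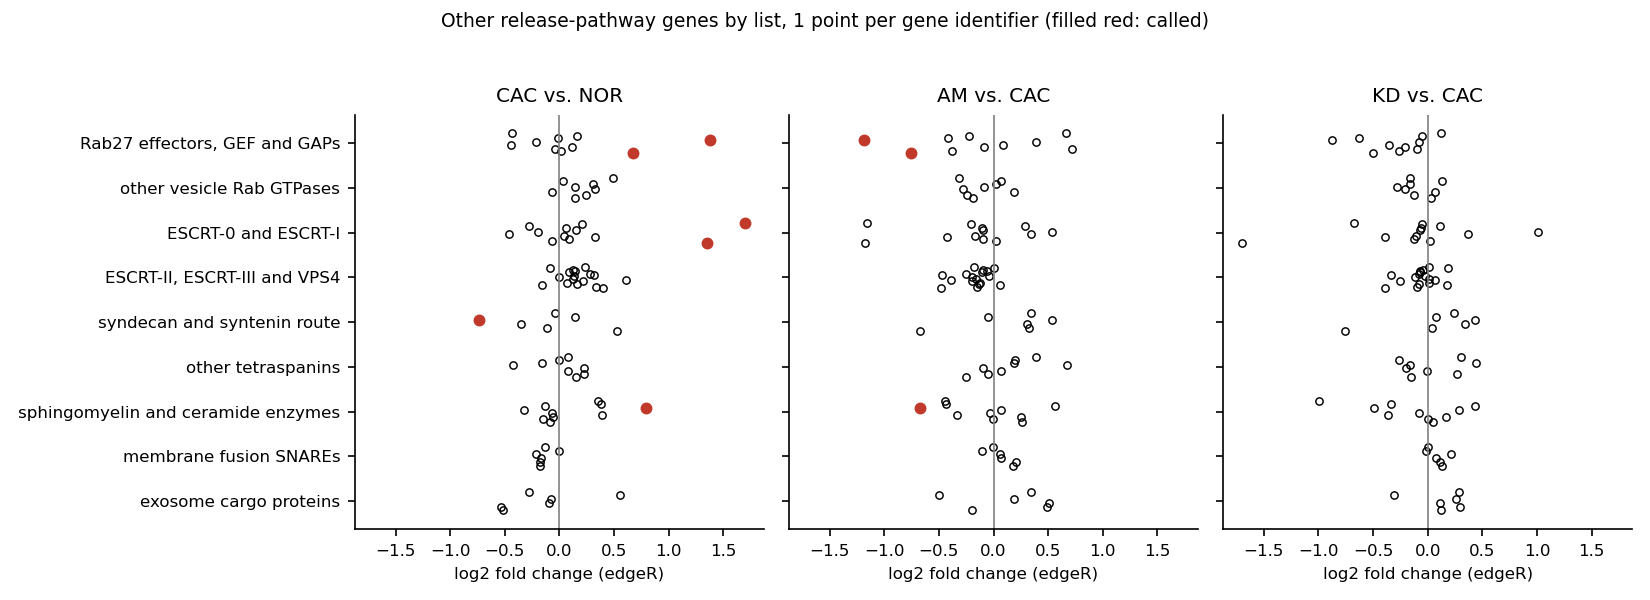
Log2 fold changes by edgeR (horizontal axes) of the other release-pathway genes in 9 lists, 1 point per identifier, for 3 comparisons, with red filled points for called genes. Red points lie at 0.67 to 1.70 and at -0.74 for CAC vs. NOR, and at -1.18 to -0.67 for AM vs. CAC, while KD vs. CAC has none.

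Markers of other cell types moved with some of these comparisons. Of 5 neutrophil markers, 3 (S100a8, S100a9, and Retnlg) were upregulated in CAC vs. NOR, and the summed level of all 5 was 3.74 to 29.6 CPM in NOR and 92.4 to 221 CPM in CAC, without overlap. It was 13.0 to 191 CPM in AM and 11.7 to 294 CPM in KD, and 1 of the 5 markers had 0 counts in NOR replicate 2 and in AM replicate 4. Of 5 fibroblast markers, Col1a1 and Col3a1 were downregulated in CAC vs. NOR and upregulated in AM vs. CAC, and the summed level was 2280 to 2853 CPM in NOR, 801 to 1331 CPM in CAC, 1837 to 2541 CPM in AM, and 704 to 3077 CPM in KD. Of 5 endothelial markers, only Pecam1 was called in CAC vs. NOR, with a log2 fold change of 0.77. Those of Kdr, Cdh5, Tie1, and Tek were -0.91, -0.08, 0.23, and 0.39. The summed endothelial level overlapped, at 867 to 1332 CPM in NOR and 1033 to 1462 CPM in CAC. The part of these cells in the changes of Rab27a, Sytl2, and Cd63 was not tested.

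Lymphocyte markers ranged from 0.968 to 343 CPM without following the groups. With their level as a covariate, the log2 fold changes in CAC vs. NOR were 1.68 for Rab27a (FDR 0.0165 by edgeR), -1.26 for Sytl2 (FDR 0.00996 by edgeR), and 0.61 for Cd63 (FDR 0.00558 by edgeR). Markers of melanocytes, cells in which Rab27a moves melanosomes, summed to 0.577 to 1.42 CPM. Of the muscle fibre, macrophage, lymphocyte, mast cell, platelet, adipocyte, melanocyte, and Schwann cell markers, 0 were called by edgeR in these 3 comparisons. Only 2 of the 5 melanocyte markers passed the filter on low counts. The median log2 fold changes of these lists in CAC vs. NOR ran from -0.93 for mast cells to 1.34 for platelets. That of muscle fibres was -0.53. The absence of a call does not show that these cells were unchanged.

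**Figure D5:**
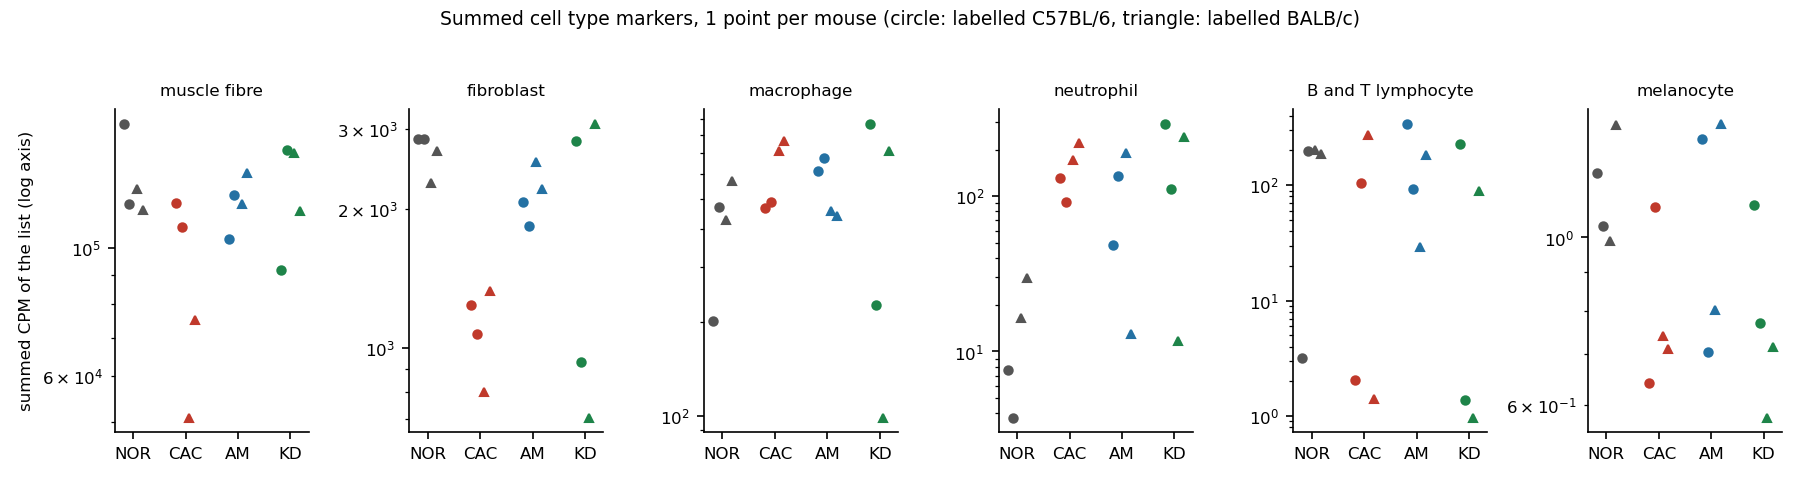
Summed CPM (vertical axes, logarithmic, with a range of their own in each panel) of 6 lists of cell type markers in each mouse by group, with circles for mice labelled C57BL/6 and triangles for mice labelled BALB/c. Neutrophil markers lie at 92.4 CPM or more in all CAC mice and at 29.6 CPM or less in all NOR mice, while lymphocyte markers vary within every group.

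Over the 16 mice, the 3 genes whose log2 CPM was most like that of Rab27a among 13209 others with a mean of at least 1 CPM were Rbbp6 (Pearson's r 0.902), Cc2d1b (0.898), and Vars (0.889). Their group means were likewise highest in CAC: Vars, a valyl-tRNA synthetase, was at 125 ± 18.0 CPM in CAC, against 61.7 ± 11.5 CPM in NOR, 72.7 ± 10.7 CPM in AM, and 73.7 ± 12.5 CPM in KD (SD, n = 4). For Rab27b, the 3 were Acbd4 (0.843), Tpmt (0.790), and Olfm1 (0.789). The mean of Acbd4 was 22.2 ± 0.835 CPM in NOR, 26.5 ± 3.53 CPM in CAC, 33.7 ± 6.73 CPM in AM, and 30.0 ± 11.2 CPM in KD. These coefficients are descriptions over mice of 4 groups that share their group differences.

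In the same annotation, Rab27b lies at chr18:69979131-70141605, Tsg101 at chr7:46888949-46919969, Pdcd6ip at chr9:113651744-113708259, Sytl4 at chrX:133936385-133981812, and Smpd3 at chr8:106252548-106337988, all on the minus strand. Sdcbp lies at chr4:6365650-6408423 and Cd81 at chr7:143052739-143067934, on the plus strand. Overlaps in the annotation limit what some members can show. Sdcbp shares exonic bases with Nsmaf, and Smpd3 with Prmt7, on opposite strands, and the strandedness of the counting is not given in the sources used here. Exons of Rab27a overlap the processed pseudogene Gm27186 on the same strand, and exons of Cd81 overlap R74862 on the opposite strand, and neither of these is an identifier of the table. Of the 31-base words in the transcripts of each member, 26.1% of Tsg101 and 15.9% of Cd63 also occur in transcripts of other genes, against at most 5.06% for the other 8, and the handling of reads with several matches is not given either.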

How the data were processed

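Gastrocnemius poly(A) RNA of 16 mice was sequenced by the authors on a HiSeq2500, 1 library per mouse. The submitters' processing notes name fastp, Bowtie2, HISAT2, StringTie 1.3.1, and the builds mm9 and GRCm38; which build and aligner made the table, and the strandedness of counting, are not given in the sources used here. Of 21923 identifiers, 21905 matched GENCODE M21 on GRCm38. The deposited table holds raw read counts per gene, and FPKM that the authors computed from them; the study itself used NOISeq, which was not used here.

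Counts were tested with the quasi-likelihood F test of edgeR 4.0.16 (R 4.3.3) after TMM scaling and a filter on low counts (filterByExpr, minimum count 10, minimum total 15), on the 8 libraries of each comparison. FDRs were adjusted over all genes tested, and a gene was called at an FDR up to 0.05 with a fold change of 1.5 or more. An SE is the log2 fold change over the square root of F. Group membership came from the labels, with 4 mice a group. The depth was 35913190 to 61032708 counts, and libraries of a group differed by more than sampling noise (chi-square per degree of freedom of at least 69.3 in 24 pairs). Library batches are not given in the sources used here. In the main fits, p-values set a difference against the spread between mice of a group. That spread mixes both labelled strains and, in the tumor-bearing groups, both tumor lines.

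Alternatives were DESeq2 1.42.0, other scalings, no filter, labelled strain as a covariate, a replicate block, 1 fit over all 16 libraries, fits within each labelled strain, the FDR limit alone, and leaving out each library. Another 4 were chosen after seeing the data: without the 4 libraries that stand apart, those libraries as a covariate, lymphocyte markers as a covariate, and without KD replicate 3. The code was tested on simulated data. The members and lists were chosen with earlier results of these data known. Named were all members, every called gene of the pathway lists, and the 3 genes most like Rab27a and Rab27b. Promoters are RefSeq windows of GRCm38.p6.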

Additional observations from a re-analysis of the deposited data

Results flagged for a closer look

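Pdcd6ip in CAC replicate 4, at 94.7 CPM, stood far from the other 3 mice of its group, which were at 81.5 to 82.8 CPM. Its gap to the nearest mouse was 0.900 of the range of the group, above the 95% critical value of Dixon's test for 4 samples. It was the 1 such value among 40 groups of 4 mice (10 genes in 4 groups), and chance alone gives about 1 in 20. CAC replicate 4 is also one of the libraries with low Rps2.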

How the results depend on the processing

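Of the alternatives' log2 fold changes for the 10 members and the called pathway genes, 1188 kept their sign and their side of the limits, 82 kept the sign and lost the call, 7 gained a call, and 41 turned in sign, none of them a called value. No alternative was run for the 6 genes most like Rab27a and Rab27b. The number of members called in CAC vs. NOR was 3, and 0 in each labelled strain alone, where 2 mice stood against 2; without 1 library it was 2 to 3. Among the other release-pathway genes it was 6, with 2 in C57BL/6 mice alone, 0 in BALB/c mice alone, and 2 to 7 without 1 library. The 2 members called in AM vs. CAC became 1 with labelled strain as a covariate, 1 with all 16 libraries in 1 fit, 0 in each labelled strain alone, 0 without the 4 libraries that stand apart, 4 with the FDR limit alone, and 0 to 2 without 1 library. The 3 other pathway genes called there became 5 with DESeq2, 0 with all 16 libraries, 0 in each labelled strain alone, 0 without the 4 libraries that stand apart, and 1 to 4 without 1 library. DESeq2 called 1 member and 1 other pathway gene in KD vs. CAC and 1 other pathway gene in KD vs. NOR, where edgeR called 0. Fewer mice enter the fits of 1 strain and those that leave out libraries; otherwise the cause was not tested.

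The replicate numbers did not pair the mice: same-numbered libraries correlated at -0.64 to 0.60, and 2 of 20 were nearest to their own number. With the replicate number as a block, 2 members were called in CAC vs. NOR, 0 members and 0 other pathway genes in AM vs. CAC, and 0 members in KD vs. CAC. The call lost in CAC vs. NOR was that of Rab27a (1.52, edgeR FDR 0.0854). In AM vs. CAC, Rab27a was at -1.11 (edgeR FDR 0.182) and Sytl2 at 1.07 (edgeR FDR 0.132). Scaling by total counts moved the median of all genes to 0.14 in CAC vs. NOR and -0.11 in KD vs. CAC. Called genes in CAC vs. NOR were 633 higher and 753 lower, 959 and 619 with total-count scaling, and 523 and 918 with upper-quartile scaling.

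Signs that turned were those of values not called. With upper-quartile scaling, the sign turned, to 0.0036 for Pdcd6ip in AM vs. CAC. In the labelled C57BL/6 mice alone, the sign turned, to 0.030 for Pdcd6ip, 0.016 for Sdcbp, and -0.21 for Smpd3 in AM vs. CAC, to 0.0058 for Pdcd6ip and 0.0085 for Sdcbp in KD vs. CAC. In the labelled BALB/c mice alone, the sign turned, to -0.27 for Rab27b in KD vs. CAC, to -0.089 for Rab27a, 0.098 for Sytl2, 0.061 for Tsg101, -0.10 for Sdcbp, -0.11 for Cd63, and 0.077 for Cd81 in AM vs. NOR, to -0.15 for Rab27b and -0.015 for Cd63 in KD vs. NOR. With total-count scaling, the sign turned, to 0.043 for Cd81 in AM vs. NOR. Without the 4 libraries that stand apart, the sign turned, to -0.0081 for Sytl4 and 0.035 for Cd81 in AM vs. NOR. With those libraries as a covariate, the sign turned, to -0.020 for Sytl4 and 0.022 for Cd81 in AM vs. NOR. With the lymphocyte marker level as a covariate, the sign turned, to 0.0026 for Cd81 in AM vs. NOR, to -0.029 for Tsg101 and 0.025 for Smpd3 in KD vs. NOR. Without KD replicate 3, the sign turned, to 0.030 for Cd81 in KD vs. NOR. In CAC vs. NOR, leaving out 1 library gave -0.31 to 0.036 for Sytl4. In AM vs. CAC, leaving out 1 library gave -0.098 to 0.019 for Pdcd6ip and -0.11 to 0.33 for Smpd3. In KD vs. CAC, leaving out 1 library gave -0.15 to 0.66 for Smpd3. In AM vs. NOR, leaving out 1 library gave -0.014 to 0.14 for Sdcbp, -0.051 to 0.032 for Cd81, -0.25 to 0.0049 for Sytl2, -0.10 to 0.17 for Sytl4, and -0.0093 to 0.11 for Cd63. In KD vs. NOR, leaving out 1 library gave -0.087 to 0.030 for Cd81, -0.059 to 0.19 for Tsg101, and -0.014 to 0.19 for Cd63. Rab27b, at 14 to 113 counts, is the member that depth limits most.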
